A study of Mus musculus with 8 samples.

Results

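Fatty acid oxidation and ketogenesis under the nuclear receptor PPARalpha were examined through 35 genes in the livers of diet-induced obese (DIO) mice treated with IXA4 or vehicle. The genes were taken by symbol from a count table of 26166 symbols: the receptor itself, its targets in fatty acid uptake, the carnitine shuttle, mitochondrial and peroxisomal oxidation, electron transfer, ketone body metabolism and acyl-CoA hydrolysis, and Pdk4. All 35 were found and all 35 passed the filter on low counts, which left 12427 genes to test. No expression value entered the choice of the 35, but they were chosen with earlier results of these data known, so they are described by counts and medians beside the same figures over all genes.

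The mice were male C57BL/6N DIO animals bought at 14 weeks of age and fed a diet with 60% of its kcal as fat for 3 weeks before dosing, which both groups shared. IXA4, a small-molecule activator of the endoplasmic reticulum stress sensor IRE1 and of its transcription factor XBP1s, was injected intraperitoneally at 50 mg/kg once a day for 8 weeks, and control mice received the DMSO, Kolliphor EL, ethanol and saline vehicle on the same schedule. Whole-liver RNA from 4 mice in each group was sequenced to 16986915 to 18390185 counts per library. Replicate numbers below are those of the count table, which do not name single animals.

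In hepatocytes, long-chain fatty acids are taken up, bound by a carrier protein, activated to acyl-CoA, passed into the mitochondrion as carnitine esters, and shortened by repeated rounds of dehydrogenation, hydration, a second dehydrogenation and thiolysis. Peroxisomes run a parallel pathway for very long-chain and branched substrates, and hepatic acetyl-CoA in excess of need is turned into ketone bodies. PPARalpha, bound as a dimer with RXR to paired AGGTCA half-sites 1 base apart, is the main transcriptional activator of these steps in liver and is itself activated by fatty acids and fibrate drugs.

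In IXA4-treated livers 2 of the 35 genes were lower past the threshold of an adjusted p of 0.05, and 0 were higher. Both encode the peroxisomal thiolase: Acaa1b and its close paralog Acaa1a, at 30.4% and 24.0% below vehicle. Over all genes tested, 0.99% were called lower and 3.64% higher by the same test, edgeR's quasi-likelihood F test with Benjamini-Hochberg adjustment. The other 33 genes did not pass, although 34 of the 35 had a lower fitted level with IXA4, against 52.1% of all genes tested. The median log2 fold change of the 35 was -0.20, against -0.01 over all genes.

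Most of these genes are abundant in liver, and abundant genes as a whole lay slightly lower with IXA4: of the 933 genes at a mean of 100 CPM or more (CPM being counts scaled to the normalized library size), 65.4% had a negative log2 fold change and their median was -0.08. At an unadjusted p under 0.05, 11 of the 35 were lower and 0 higher, where 8.03% of all genes were lower. In 10 of the 35, every IXA4 library lay below every vehicle library, which held for 5.24% of all genes, and in 0 of the 35 did every IXA4 library lie above, which held for 7.44%. DESeq2 on the same counts called 4 of the 35 lower, where it called 2.06% of all genes lower. Its 2 further genes were Acads (adjusted p = 0.0189) and Acot1 (adjusted p = 0.0350). Abundant genes as a whole were also lower more often than all genes. Of the 933, 122 were lower and 107 higher at an unadjusted p under 0.05. In 99 of the 933 every IXA4 library lay below every vehicle library, and in 73 every IXA4 library lay above. The calls among the 933 ran mostly the other way. DESeq2 called 45 of them lower and 71 higher, and edgeR called 16 lower and 49 higher.

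**Figure D1:**
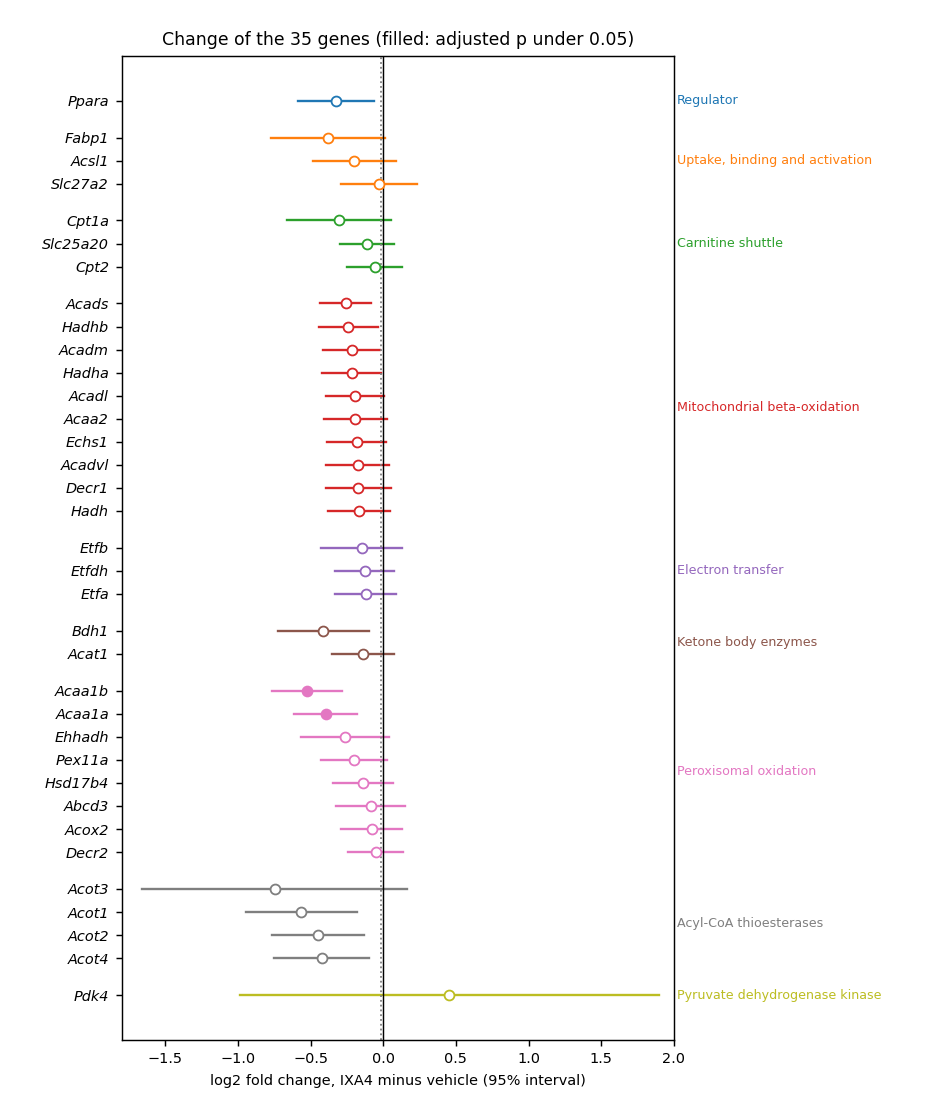
Log2 fold change (IXA4 minus vehicle, horizontal axis) of each of the 35 genes with its 95% interval, grouped by step of the pathway, where filled circles passed an adjusted p of 0.05 and the dotted line is the median of all genes tested (-0.01). Only Acaa1b (-0.52) and Acaa1a (-0.40) are filled, and only Pdk4 (0.45) lies to the right of 0.

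Since the thiolase pair carries the only edgeR calls, the sequences that separate its members bear on the counts. Both genes lie on chromosome 9 of NCBIM37, Acaa1b at chr9:119057141-119066211 on the minus strand and Acaa1a at chr9:119250412-119259413 on the plus strand. Their coding sequences are 1275 bases long and 96.55% identical, with 327 bases as the longest identical run, and reads were 50 bases long. Of all 50-base stretches in the transcript, 24.8% in Acaa1b and 23.8% in Acaa1a also occur elsewhere in the genome, each in the other gene. Coding bases 460 to 549 are shown because 13 positions, in capitals, tell the genes apart within this stretch.
Acaa1a: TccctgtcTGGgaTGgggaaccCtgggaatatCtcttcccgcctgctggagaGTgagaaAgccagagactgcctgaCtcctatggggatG
Acaa1b: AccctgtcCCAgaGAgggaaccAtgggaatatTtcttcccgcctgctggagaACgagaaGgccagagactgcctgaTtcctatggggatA
The sources used here do not give how reads that fit both genes were assigned, and the split between them is uncertain. When the counts of both genes were summed before the fit, the pair remained lower with IXA4 (log2 fold change -0.49, edgeR adjusted p = 0.0226).

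Peroxisomal 3-ketoacyl-CoA thiolase performs the last step of each peroxisomal round, releasing acetyl-CoA. Acaa1b measured 2604, 2554, 2542 and 2546 CPM in vehicle libraries 1 to 4. It measured 1944, 1766, 1939 and 1478 CPM in IXA4 libraries 1 to 4. The vehicle libraries were close together and every IXA4 library lay below all of them, with IXA4 replicate 4 the lowest. The means were 1782 ± 219 CPM with IXA4 and 2561 ± 28.7 CPM with vehicle (SD, n = 4 each), a log2 fold change of -0.52 (SE 0.11, 95% interval -0.77 to -0.28, edgeR adjusted p = 0.0184). The call was lost without vehicle replicate 1 (adjusted p = 0.0639) or vehicle replicate 2 (adjusted p = 0.0602), and held without each of the other 6 libraries.

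Acaa1a showed the same arrangement at a lower level. It measured 735, 745, 759 and 735 CPM in the vehicle libraries and 613, 558, 594 and 494 CPM in the IXA4 libraries, again with no overlap and with IXA4 replicate 4 lowest. The log2 fold change was -0.40 (SE 0.10, 95% interval -0.61 to -0.18, edgeR adjusted p = 0.0383). This call was lost when any single library was left out, with adjusted p between 0.0604 and 0.109 and log2 fold changes between -0.44 and -0.34. Per kilobase of transcript, the vehicle level of Acaa1b was 3.59 times that of Acaa1a.

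The other 6 peroxisomal genes did not pass. Ehhadh, the bifunctional hydratase and dehydrogenase of the classical pathway, ranged from 382 to 583 CPM with IXA4 and from 452 to 596 CPM with vehicle, overlapping groups with a log2 fold change of -0.26. Hsd17b4, the bifunctional enzyme for branched and very long-chain substrates, lay between 708 and 799 CPM in all IXA4 libraries and between 801 and 881 CPM in all vehicle libraries, so the groups were separated by a narrow margin (log2 fold change -0.14, adjusted p = 0.464). Pex11a, a peroxisome division factor, had a log2 fold change of -0.20. Abcd3, a transporter of the peroxisomal membrane (-0.08), Acox2, the branched-chain acyl-CoA oxidase (-0.08), and Decr2, a dienoyl-CoA reductase (-0.05), lay nearest to 0, and their 95% intervals together ran from -0.32 to 0.15. Over the 8 peroxisomal genes the median log2 fold change was -0.17.

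**Figure D2:**
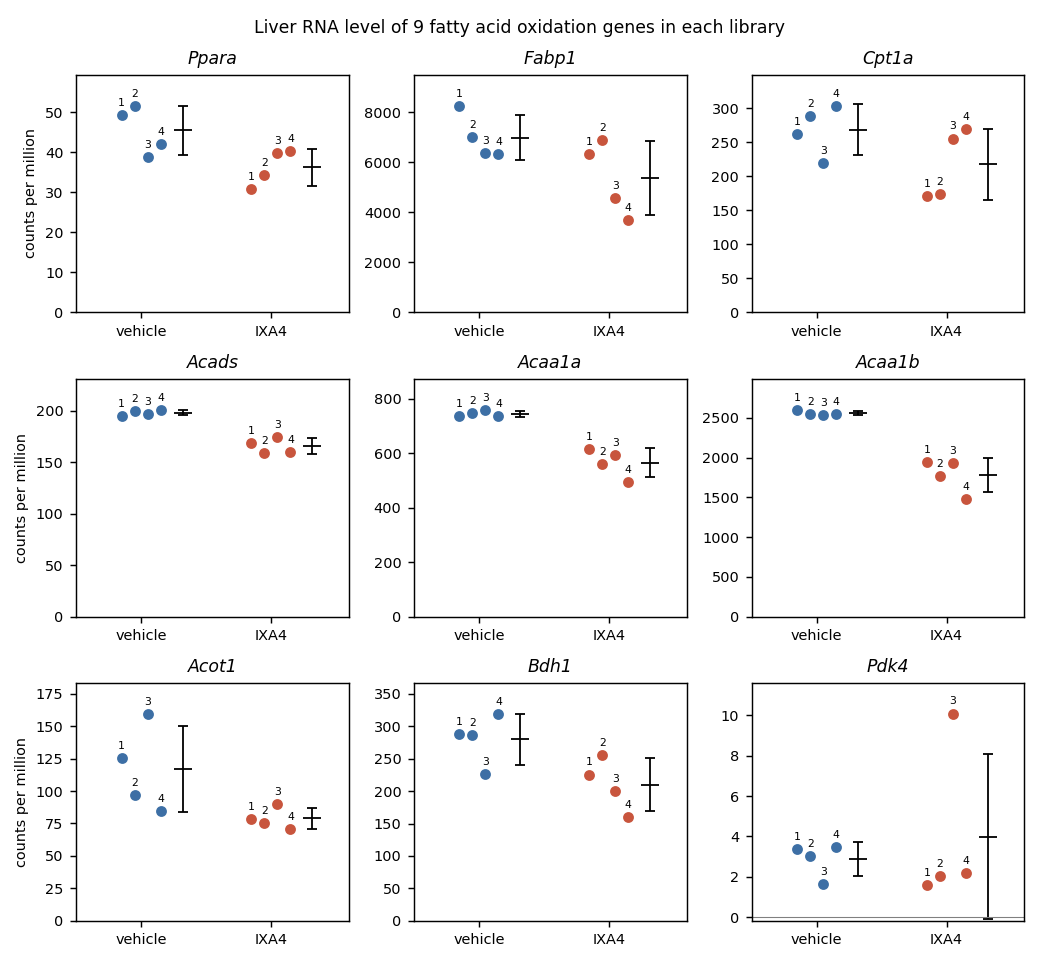
Level in CPM (vertical axis) of 9 genes in each vehicle (blue) and IXA4 (red) library, labelled by replicate number, with the mean and SD beside each group. Acads, Acaa1a and Acaa1b show no overlap between groups, Ppara, Fabp1, Cpt1a, Acot1 and Bdh1 overlap, and Pdk4 has 1 IXA4 library at 10.1 CPM above all others.

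Ppara, which encodes the receptor, did not pass. Its vehicle libraries measured 49.2, 51.6, 38.8 and 42.0 CPM and its IXA4 libraries 30.7, 34.2, 39.8 and 40.3 CPM. The groups overlapped because vehicle replicate 3 lay below IXA4 replicates 3 and 4. The log2 fold change was -0.33 (SE 0.12, 95% interval -0.58 to -0.07), with an edgeR adjusted p of 0.161. Ppara was among the least abundant of the 35 per kilobase of transcript, at 13.3 CPM per kilobase with vehicle, where Fabp1 stood at 12645 CPM per kilobase.

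The first steps of the pathway, uptake, binding and activation, held no call by edgeR or DESeq2. Fabp1, the liver fatty acid binding protein, measured 8271, 7000.4, 6359.8 and 6339 CPM in the vehicle libraries and 6323, 6876, 4571 and 3708 CPM in the IXA4 libraries. IXA4 replicates 1, 3 and 4 lay below every vehicle library, replicate 1 by a narrow margin, while replicate 2 lay inside the vehicle range. The log2 fold change was -0.38 (SE 0.18, edgeR adjusted p = 0.279), and its 95% interval ran from -0.78 to 0.01. Acsl1, the main long-chain acyl-CoA synthetase, stood at -0.20 on the log2 scale (adjusted p = 0.456). Slc27a2, which imports and activates very long-chain fatty acids, had one of -0.03 with an interval of -0.29 to 0.23, and its sign turned positive without IXA4 replicate 2, vehicle replicate 1 or vehicle replicate 3 (0.018 to 0.025).

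The carnitine shuttle held no call by either tool. Cpt1a, the malonyl-CoA-sensitive enzyme that commits long-chain acyl groups to the mitochondrion, measured 262, 289, 219 and 304 CPM in the vehicle libraries. In the IXA4 libraries it measured 171, 174, 256 and 269 CPM. The IXA4 libraries thus fell into a low pair, replicates 1 and 2, below all vehicle libraries, and a pair inside the vehicle range. The log2 fold change was -0.30 (SE 0.16, 95% interval -0.66 to 0.05, edgeR adjusted p = 0.343). Cpt2, the inner-membrane partner enzyme, measured 247, 251, 261 and 235 CPM with vehicle and 238, 219.9, 247 and 249 CPM with IXA4. Its log2 fold change was -0.06 with a 95% interval of -0.25 to 0.13, so a fall of the size seen for Acaa1b lay outside the interval. The exchanger Slc25a20 had a log2 fold change of -0.11.

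All 10 mitochondrial beta-oxidation genes had a negative log2 fold change, between -0.26 and -0.17 with a median of -0.19. In 7 of the 10 every IXA4 library lay below every vehicle library, against 5.24% of all genes and 99 of the 933 abundant genes. None passed the adjusted threshold in edgeR. At an unadjusted p under 0.05, 4 of the 10 were lower, against 8.03% of all genes and 122 of the 933 abundant genes. Acads, the short-chain acyl-CoA dehydrogenase, measured 195, 199, 196 and 201 CPM with vehicle and 169, 159, 175 and 159 CPM with IXA4. The groups stood clearly apart with little spread inside either, and the log2 fold change was -0.26 (SE 0.08, 95% interval -0.43 to -0.08, edgeR adjusted p = 0.0993). Acaa2, the mitochondrial thiolase and the most abundant of the group per kilobase, measured 1246, 1204, 1326 and 1194 CPM with vehicle and 1163, 1112, 1109.6 and 968 CPM with IXA4. It too showed no overlap, at a log2 fold change of -0.19 (SE 0.10, adjusted p = 0.332).

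Among the acyl-CoA dehydrogenases, which start each round for chains of different length, Acadm (medium chain) had a log2 fold change of -0.22, Acadl (long chain) -0.20 and Acadvl (very long chain) -0.18. Hadha, the alpha subunit of the mitochondrial trifunctional protein, ranged from 457 to 540.3 CPM with IXA4 and from 564 to 607 CPM with vehicle (log2 fold change -0.22). Hadhb, its beta subunit, ranged from 23.4 to 25.7 CPM with IXA4 and from 26.1 to 31.9 CPM with vehicle (log2 fold change -0.24). The subunits are found in equal numbers in the protein, yet per kilobase of transcript the vehicle level of Hadha was 10.2 times that of Hadhb. Of the 50-base stretches in the Hadhb transcript, 82.7% also occur elsewhere in the genome, nearly all of them at chr2:108788953-108790885, so the level of Hadhb in these counts is uncertain. Echs1, the short-chain hydratase (log2 fold change -0.18), also showed no overlap, while Hadh, the short-chain hydroxyacyl-CoA dehydrogenase (-0.17), and Decr1, the mitochondrial dienoyl-CoA reductase (-0.17), overlapped.

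The electron transfer genes, which pass electrons from the dehydrogenases to the respiratory chain, did not pass, with log2 fold changes of -0.12 for Etfa, -0.15 for Etfb and -0.13 for Etfdh. Etfdh measured 384, 390.2, 392 and 380.1 CPM with vehicle and 357, 320.5, 397 and 341 CPM with IXA4 (edgeR adjusted p = 0.503). Etfb measured 412, 396, 488 and 385 CPM with vehicle and 423, 437, 352 and 304 CPM with IXA4 (adjusted p = 0.577). For Etfdh 3 IXA4 libraries lay below and 1 above the narrow vehicle range, and for Etfb 2 lay below and 2 inside it.

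Of the ketone body enzymes among the 35, Bdh1, which interconverts acetoacetate and beta-hydroxybutyrate, measured 288, 286, 226 and 319 CPM with vehicle. It measured 226, 255, 199.7 and 160.1 CPM with IXA4. Only vehicle replicate 3 reached into the IXA4 range, and the log2 fold change was -0.41 (SE 0.14, 95% interval -0.73 to -0.10, edgeR adjusted p = 0.139). Acat1, the mitochondrial acetoacetyl-CoA thiolase, measured 556, 625, 652 and 645 CPM with vehicle and 575, 589, 578 and 506 CPM with IXA4. Its groups overlapped, with a log2 fold change of -0.14 (SE 0.10, adjusted p = 0.480).

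The acyl-CoA thioesterases, which split acyl-CoA into free acid and CoA in the cytosol (Acot1), mitochondrion (Acot2) and peroxisome (Acot3 and Acot4), had the lowest median of the groups with more than 1 gene, -0.51, yet none passed by edgeR, and DESeq2 called 1 lower, Acot1. Acot1 measured 125, 97.2, 159 and 85.0 CPM with vehicle and 78.7, 75.7, 90.2 and 71.1 CPM with IXA4. Its spread lay mostly in the vehicle libraries, with replicates 1 and 3 high, and its log2 fold change was -0.56 (SE 0.17, 95% interval -0.95 to -0.18, edgeR adjusted p = 0.103). Acot2 was also highest in vehicle replicates 3 and 1, at 66.3, 49.5, 79.6 and 51.1 CPM in vehicle libraries 1 to 4, with IXA4 between 39.9 and 50.2 CPM (log2 fold change -0.45, adjusted p = 0.108). The coding sequences of Acot1 and Acot2 are 95.24% identical, and 41.5% and 24.7% of the 50-base stretches of their transcripts occur elsewhere. How reads with several matches were assigned is not given, so the counts of Acot1 and Acot2 may not be independent. Summed, the pair gave a log2 fold change of -0.52 (edgeR adjusted p = 0.0961). Acot3 ranged from 26.2 CPM in IXA4 replicate 4 to 130.1 CPM in vehicle replicate 3 and had the lowest log2 fold change of the 35, -0.75, with an interval of -1.66 to 0.16. Acot4 had one of -0.42 (adjusted p = 0.146).

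Pdk4, the kinase that shuts pyruvate dehydrogenase when fat is burned, was the 1 gene with a positive log2 fold change. It was scarce, at 3.36, 3.06, 1.63 and 3.49 CPM with vehicle and 1.58, 2.04, 10.1 and 2.19 CPM with IXA4. The positive sign came from IXA4 replicate 3, the highest of all libraries, while the other 3 IXA4 libraries lay below 3 of the 4 vehicle libraries. The log2 fold change was 0.45 (SE 0.62, 95% interval -0.99 to 1.90, edgeR adjusted p = 0.749), and it was -0.58 (adjusted p = 0.333) without IXA4 replicate 3. Of all 35 genes it had the widest interval, and no direction can be given for it.

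Of the 33 genes that did not pass, the 95% interval excluded a fall of 1 on the log2 scale in 32 and excluded a rise of 0.5 in 32, while it held 0 in 24.

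The libraries did not contribute equally. Relative to the mean of the vehicle libraries, the median deviation of the 35 genes on the log2 scale was -0.19, -0.17, -0.14 and -0.34 in IXA4 replicates 1 to 4, and -0.01, 0.01, 0.03 and -0.02 in vehicle replicates 1 to 4. Every IXA4 library thus had a median below every vehicle library. IXA4 replicate 4 was the lowest of the 8 libraries in 21 of the 35 genes and IXA4 replicate 2 in 9, while vehicle replicate 3 was the highest in 14. The 12 hepatocyte markers described below had median deviations of 0.02, -0.07, -0.04 and -0.35 in IXA4 replicates 1 to 4. The low level of replicate 4 was thus not particular to the 35 genes, and its cause was not tested. The SD within the group was larger with IXA4 in 27 of the 35 genes, with medians of 0.138 for IXA4 and 0.0976 for vehicle on the log2 scale. Without IXA4 replicate 4 the median log2 fold change of the 35 genes was -0.14, and over the other libraries left out in turn it lay between -0.21 and -0.17.

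**Figure D3:**
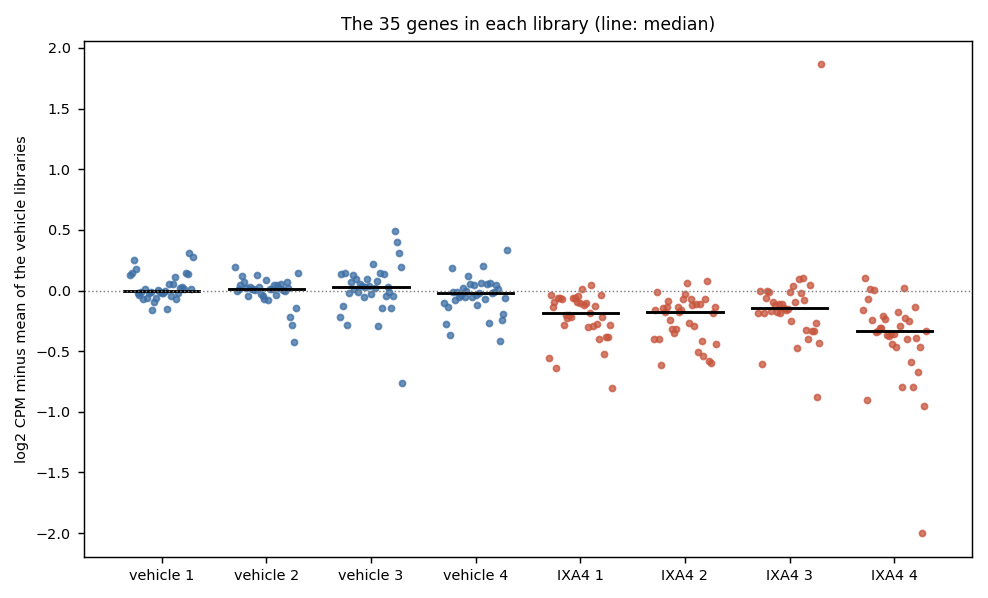
Deviation of each of the 35 genes from its vehicle mean on the log2 CPM scale (vertical axis) in each library, 1 point per gene, where the line is the median. The 4 vehicle medians lie between -0.02 and 0.03 and the 4 IXA4 medians between -0.34 and -0.14, with IXA4 replicate 4 lowest.

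Promoter sequences, from RefSeq in a table of build GRCm38.p6 and placed in NCBIM37 by exact match, were found for 31 of the 35 genes, in 36 windows that run from 250 bases before to 50 after a start site. They were searched on both strands for the PPARalpha element AGGTCANAGGTCA. An exact match was in 0 of the 36 windows, and in 0.0396% of all 32851 mouse promoters of the same length. With up to 1 mismatch it was in 2.78% of the windows and 0.554% of all promoters, and with up to 2 mismatches in 16.7% and 3.86%. A match is a string of letters and not a bound site, and elements farther from the start site lie outside these windows. The closest match was in Fabp1, on the reverse strand with its first base 67 bases before the start site, and 5 further genes had a match with 2 mismatches. The matches are shown as they read on the strand of the gene, with the match in capitals for the whole Fabp1 window at chr6:71149623-71149922 (plus strand).
Fabp1: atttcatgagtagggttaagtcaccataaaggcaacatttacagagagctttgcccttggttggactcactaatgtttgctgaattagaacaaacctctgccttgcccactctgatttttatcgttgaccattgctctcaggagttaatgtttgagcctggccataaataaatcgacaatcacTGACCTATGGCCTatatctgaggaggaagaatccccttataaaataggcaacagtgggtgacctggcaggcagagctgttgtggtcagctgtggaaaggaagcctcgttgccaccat
Acot4: TGACCTTTGGCCG
Etfa: TTACCTTTGCCCT
Echs1: AGGTCACGGGTCC
Slc25a20: AGGTGAAAGGTCG
Acox2: AGGACAGAGGTGA
None of these 6 genes passed by edgeR or DESeq2. The windows of the pair that did, Acaa1b at chr9:119066162-119066461 (minus strand) and Acaa1a at chr9:119250162-119250461 (plus strand), had no match with fewer than 4 and 5 mismatches, and they are shown because they share no run of over 8 identical bases, unlike the coding sequences.
Acaa1b: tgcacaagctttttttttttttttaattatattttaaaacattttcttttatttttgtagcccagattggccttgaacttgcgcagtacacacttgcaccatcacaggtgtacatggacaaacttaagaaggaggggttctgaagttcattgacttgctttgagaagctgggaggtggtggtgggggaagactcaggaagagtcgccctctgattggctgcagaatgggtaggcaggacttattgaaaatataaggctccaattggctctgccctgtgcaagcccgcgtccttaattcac
Acaa1a: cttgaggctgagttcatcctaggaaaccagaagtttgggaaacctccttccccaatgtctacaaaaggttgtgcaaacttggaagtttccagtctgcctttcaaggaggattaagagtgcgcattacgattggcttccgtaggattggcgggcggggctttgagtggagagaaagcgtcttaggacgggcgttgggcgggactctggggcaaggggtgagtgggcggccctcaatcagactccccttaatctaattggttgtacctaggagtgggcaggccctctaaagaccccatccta

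Further genes of the same pathways, listed beside the 35, held few calls. Of 33 other mitochondrial fatty acid oxidation genes tested, edgeR called 1 higher and 1 lower, as did DESeq2, with a median log2 fold change of -0.13. Crat, carnitine acetyltransferase, fell from 139.7, 107, 139 and 124 CPM in the vehicle libraries to 78.8, 87.8, 93.2 and 78.6 CPM in the IXA4 libraries (log2 fold change -0.59, SE 0.11, edgeR adjusted p = 0.0069). No IXA4 library reached the vehicle range, and the call held when each library was left out in turn. Cpt1c, a form of the carnitine enzyme known mainly from brain, rose (log2 fold change 1.33, adjusted p = 0.0299), but only from 0.418 to 1.06 CPM, and this call was lost when any single library was left out (adjusted p 0.0525 to 0.103). The 9 other ketone body genes held 0 calls, with a median of -0.19, 2 unadjusted p under 0.05 among the lower and 1 among the higher, and 0 calls by DESeq2. At an unadjusted p under 0.05, 998 of all 12427 genes were lower (8.03%) and 1385 higher. The smallest p among the 9 was that of Slc16a6, a transporter linked to ketone body export in zebrafish, at 1.77 CPM with vehicle and 2.97 CPM with IXA4 (adjusted p = 0.114).

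Of 31 other peroxisomal oxidation genes tested, edgeR called 1 lower and 0 higher, against 0.99% and 3.64% of all genes, and the median was -0.12. DESeq2 called 3 lower, against 2.06% of all genes, and edgeR called 2 lower with total counts or with no filter on low counts. The gene called by edgeR was Abcd2, a transporter of very long-chain acyl-CoA, at 19.8 CPM with vehicle and 13.6 CPM with IXA4 (log2 fold change -0.54, edgeR adjusted p = 0.0312, with adjusted p of up to 0.106 when the call was lost without IXA4 replicate 3 or any vehicle library). Of 14 peroxins, the proteins that build peroxisomes, Pex5, the import receptor for matrix enzymes, was lower (log2 fold change -0.35, adjusted p = 0.0424) and Pex2, a ubiquitin ligase of the import machinery, was higher (0.38, adjusted p = 0.0365). With a library left out, Pex5 kept its call only without IXA4 replicate 3 and Pex2 only without IXA4 replicate 2, and the adjusted p reached 0.126 and 0.129. Over all genes, edgeR called 0.99% lower and 3.64% higher. With a median of -0.06, the peroxins gave no common direction.

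Among 21 partners and coregulators of PPARalpha, edgeR and DESeq2 each called 1 lower and 0 higher, with a median of -0.12. Of all genes tested, edgeR called 0.99% lower and DESeq2 2.06%. Ppargc1a, which encodes the coactivator PGC-1alpha of mitochondrial and fasting programmes, measured 19.6, 17.8, 23.6 and 16.8 CPM with vehicle and 10.6, 13.4, 8.48 and 6.63 CPM with IXA4. The groups did not overlap, and its log2 fold change of -0.99 (SE 0.19, 95% interval -1.41 to -0.57, edgeR adjusted p = 0.0133) was below that of each of the 35 genes. The call held when each library was left out in turn, with adjusted p up to 0.0457. The 11 other genes of the pyruvate dehydrogenase complex and its regulators held 0 calls by edgeR and 0 by DESeq2, with a median of -0.11. At an unadjusted p under 0.05, 2 of the 11 were lower, against 8.03% of all genes. The smallest p of the 11 was that of the kinase Pdk2 (log2 fold change -0.35, edgeR adjusted p = 0.100).

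Other PPARalpha target genes, the Cyp4a family among them, had a median of -0.35 over 32 tested genes, of which 28 had a negative log2 fold change. Whether PPARalpha or another regulator lay behind these values was not tested. In this list 15 genes were lower at an unadjusted p under 0.05, against 8.03% of all genes, and edgeR called 2 lower and 0 higher, against 0.99% and 3.64%. DESeq2 called 5 lower, against 2.06%. The edgeR count was 0 without vehicle replicate 1, 2 or 4, and 1 without IXA4 replicate 1 or 4. The 15 genes at an unadjusted p under 0.05 include Cyp4a10, Cyp4a14, Cyp4a31 and Cyp4a32, which belong to the same gene family. All of these were highest in vehicle replicate 3 (2683, 4716, 991 and 765 CPM), so they are not separate observations. Cyp4a12a, of that family, is also among the 15 and was highest in vehicle replicate 2. Aldh3a2, the fatty aldehyde dehydrogenase, measured 471, 469, 378 and 479 CPM with vehicle and 296, 302, 348 and 335 CPM with IXA4 (log2 fold change -0.49, SE 0.11, edgeR adjusted p = 0.0203). G0s2, an inhibitor of the triglyceride lipase ATGL, measured 81.1, 90.1, 73.8 and 93.5 CPM with vehicle and 51.6, 65.9, 36.4 and 36.3 CPM with IXA4 (-0.83, SE 0.18, adjusted p = 0.0266). Neither gene overlapped between groups. Aldh3a2 lost its call without IXA4 replicate 1 or vehicle replicates 1, 2 or 4 (adjusted p up to 0.0753), and G0s2 without IXA4 replicates 3 or 4 or vehicle replicates 1, 2 or 4 (up to 0.0798).

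**Figure D4:**
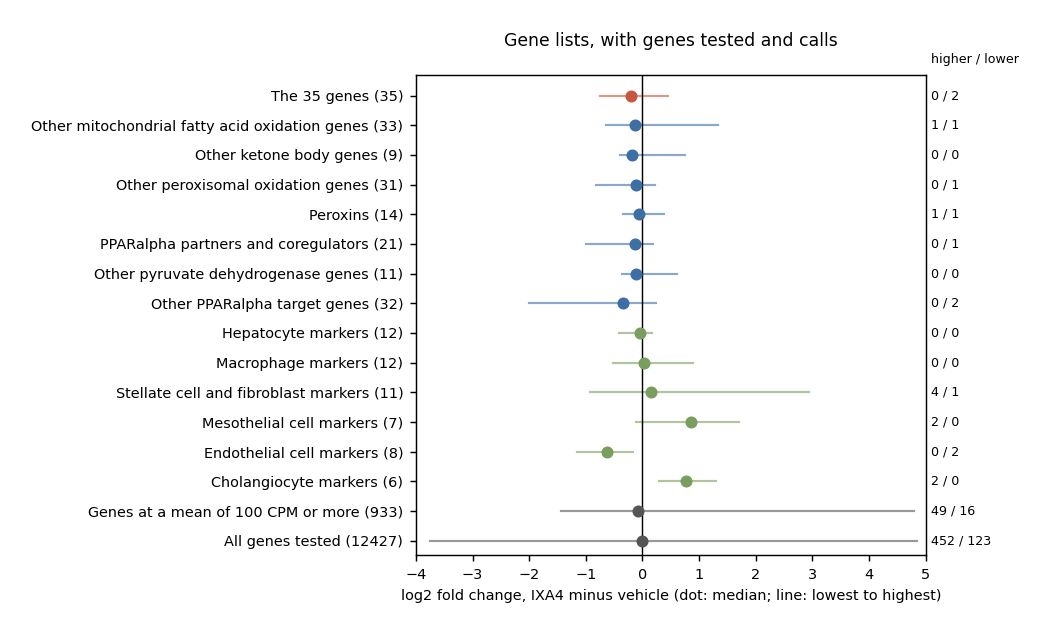
Median log2 fold change (dot) and the lowest and highest value (line) of each gene list on the horizontal axis, with the number of genes tested in brackets and the genes called higher and lower at the right. The 35 genes (median -0.20) and the other PPARalpha targets (-0.35) lie left of all genes tested (-0.01). The remaining lists of pathway genes also lie left of it, between -0.19 and -0.06, and the endothelial markers lie farthest left, at -0.63.

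Xbp1 and a pair of its targets were read as a check of the labels. Dnajb9, an endoplasmic reticulum chaperone gene, rose from 22.3 ± 2.41 to 107 ± 25.4 CPM (SD, n = 4 each, edgeR adjusted p = 6.4e-05), and Sec24d, a vesicle coat gene, from 63.9 ± 7.86 to 157 ± 52.2 CPM (adjusted p = 0.00885). Xbp1 itself, the other gene of this check, did not pass by edgeR (log2 fold change 0.97, adjusted p = 0.0684) and passed by DESeq2 (adjusted p = 0.000679). Hepatocyte markers were present at high level in every library, with a summed level of 100223 to 128764 CPM with IXA4 and 109111 to 140407 CPM with vehicle. By edgeR 0 of the 12 were called, with 1 lower at an unadjusted p under 0.05, and DESeq2 called that gene, Tat, lower (log2 fold change -0.42, DESeq2 adjusted p = 0.0380). The median log2 fold change of the 12 was -0.05, and IXA4 replicate 4 had the lowest sum. Markers of other cell types were called by edgeR in 4 lists: 4 of 11 stellate cell and fibroblast markers were higher and 1 lower (summed level 324 to 568 CPM with IXA4, 203 to 284 CPM with vehicle), 2 of 7 mesothelial markers were higher (11.6 to 41.1 and 9.59 to 23.8 CPM), 2 of 6 cholangiocyte markers were higher (55.4 to 62.6 and 34.0 to 39.5 CPM), and 2 of 8 endothelial markers were lower (66.0 to 95.9 and 83.5 to 150.6 CPM). Over all genes tested, edgeR called 3.64% higher and 0.99% lower. The stellate cell and fibroblast list was split, with 6 positive and 5 negative log2 fold changes. Krt19 is in both the mesothelial and the cholangiocyte list and is counted in each, and the mesothelial and endothelial sums overlapped between groups. The 12 macrophage markers and 4 erythroid markers held 0 calls by edgeR and 0 by DESeq2. Of 7 adipocyte markers, Adipoq and Lep were at 0 counts in all 8 libraries, and Plin1 and Retn had at most 2 and 3 counts in any library. The 3 that could be tested were Cfd, Car3 and Pck1, of which liver also expresses Car3 and Pck1. All 3 had negative log2 fold changes (-1.37, -0.49 and -0.32), with 0 calls by edgeR, 2 at an unadjusted p under 0.05, and 1, Car3, called lower by DESeq2. The part of these cell types in the lower levels of the 35 genes was not tested, and in whole-liver RNA fewer cells of a type and less RNA per cell cannot be told apart.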

How the data were processed

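Whole-liver RNA of DIO mice (4 given IXA4, 4 given vehicle) was read in single-end runs of 50 bases. The authors aligned the reads to NCBI build 37.2 with SeqManPro and quantified them in ArrayStar 12.2 with QSeq. The deposited table holds raw counts of total reads per symbol, with no normalization, and 7170 symbols have no count. For the annotation, the strand setting and reads with several matches, the choice made is not given in the sources used here. A deposited table of the authors' own DESeq comparison (group means, fold changes, p-values) was not used.

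Columns headed Veh were assigned to vehicle. The other columns are headed by a code that does not name IXA4, and were taken as IXA4 because only these groups were sequenced. Genes passing filterByExpr (minimum count 10, minimum total 15) were scaled by TMM factors and tested with edgeR 4.0.16 (robust quasi-likelihood F test, no covariate) in R 4.3.3, with adjustment over all 12427 genes and a threshold of 0.05. The SE is the one implied by F. Libraries of a group differed beyond counting noise, so none was merged. The members and gene lists were chosen with earlier results of these data known. Per-library values are given for the genes that passed, for Ppara, Cpt1a and Pdk4, and for the member of smallest p and the most abundant member per kilobase of each step. Of each further list up to 2 genes of smallest adjusted p in each direction are named, or the 1 of smallest p where none passed. Other genes named, markers among them, were chosen after their values were seen. Positions and transcript lengths are from GENCODE on NCBIM37. Alternatives were other size factors, filters and dispersion, DESeq2 1.42.0, summed paralogs, and each library left out. The test was checked on simulated counts in which 200 of 12427 genes were changed. It recovered 40% of the 1.5-fold and 75% of the 2-fold changes, and 4.96% of its calls were false. A change of 1.5-fold or less can thus go uncalled. Counting depth limits only Pdk4, the 1 member under 100 counts in a library.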

Additional observations from a re-analysis of the deposited data

Results flagged for a closer look

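Within groups of 4 libraries, 7 of 90 groups of values held a library whose gap to the nearest other exceeded Dixon's 95% critical share of the group's range, and chance alone gives about 1 in 20 such groups. Vehicle replicate 3 was the distant library in 4 of them, above the other vehicle libraries for Abcd3 (549 CPM) and below them for Acox2 (300.7 CPM), Pex11a (102 CPM) and Aldh3a2 (378 CPM). Vehicle replicate 2 stood above the others for Etfa (235 CPM). IXA4 replicate 4 stood below the others for Acat1 (506 CPM), and IXA4 replicate 3 above them for Pdk4 (10.1 CPM).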

How the results depend on the processing

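The median of the 35 genes stayed negative in all 14 alternatives, from -0.23 with total counts to -0.14 without IXA4 replicate 4, and the number of members with a negative log2 fold change lay between 33 and 35. The members called lower were 2 in the reported fit, 4 with DESeq2, 1 with close paralogs summed, and 0 to 2 when a library was left out. Over all genes, the count of lower genes was 123 in the reported fit, 256 with DESeq2 and 43 to 162 when a library was left out, and that of higher genes, 452 in the reported fit, 261 to 613. Leaving out a library also leaves fewer samples. Acot1 passed with total counts (adjusted p = 0.0465), with DESeq2 (0.0350) and without vehicle replicate 4 (0.0325). With a library left out, the log2 fold change of Slc27a2 ran from -0.12 to 0.025, positive without IXA4 replicate 2, vehicle replicate 1 or vehicle replicate 3, and that of Pdk4 from -0.58, without IXA4 replicate 3, to 0.73. The cause of these changes was not tested. No paired analysis was possible because the columns of the count table carry no animal number and the labels of the groups share only 1 number.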
